A study of Mus musculus with 12 samples.

Results

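The SR proteins (symbols beginning with Srsf and a digit) and the heterogeneous nuclear ribonucleoproteins (hnRNPs, symbols beginning with Hnrnp) were followed in RNA from the mouse ventricle. Genes were taken by symbol from a table of 54949 features, without pseudogene symbols, where at least 6 of 12 libraries held 10 or more counts. This gave 30 genes, 10 SR and 20 hnRNP, and all 30 were among the 15114 genes that passed the filter on low counts. The rule left out Srsf12, which held at most 3 counts in a library, and the pseudogene symbols Hnrnpa1l2-ps and Hnrnpa1l2-ps2 held at most 8 counts and 1 count. The lowest of the 30, Srsf4, held at least 144 counts in every library, so no member lay near the threshold.

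The study compared control mice with a model of HFpEF, heart failure in which the ejection fraction is preserved. Bulk RNA-seq libraries were made from poly-T-selected RNA of ventricles without atria, from wild-type male C57BL/6N mice. The mice were 8 weeks old at the start and were kept for 5 weeks either on a diet rich in fat plus 0.5 g/L of L-NAME (which inhibits nitric oxide synthases) in the water, or on normal food and water. The labels contradict each other on which libraries are which: the samples titled CON with the normal diet carry the library names HF-1 to HF-6, and the samples titled HFpEF with the fat diet and L-NAME carry the names con-1 to con-6. The groups are therefore called HF-named (n = 6) and con-named (n = 6) after the library names, and which of them received the diet and L-NAME cannot be told from the labels. The design text gives 5 bulk samples a group where the labels give 6, and no label ties each library to its own mouse. The p-values below therefore describe spread among these libraries, part of which may be technical.

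SR proteins carry RNA recognition motifs and a tail rich in arginine and serine, bind enhancer sequences in exons and recruit the spliceosome. Kinases of the SRPK and CLK families phosphorylate that tail and so set where SR proteins sit in the cell and how active they are. HnRNPs coat nascent transcripts and often block the use of an exon, and many members of both families limit their own level by splicing in an exon that sends the transcript to nonsense-mediated decay. In mouse heart, loss of Srsf1, Srsf2, Srsf10 or Hnrnpu is known to disturb the splicing of calcium handling genes or to cause cardiomyopathy.

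The 12 libraries held 14443186 to 22048689 counts, and the group totals did not separate (two-sided exact permutation test, p = 0.835). Transcripts of mitochondrial DNA took 25.2 ± 1.19% of counts in HF-named libraries and 22.4 ± 1.10% in con-named libraries (SD, n = 6 each; two-sided exact permutation test, p = 0.00433). Myl2, the ventricular myosin light chain, averaged 5712 ± 256 CPM in HF-named libraries and 6743 ± 436 CPM in con-named libraries, while the atrial genes Myl7 and Sln held 56 and 21 counts over all 12 libraries. Of the 5 atrial markers, 2 were tested and 0 passed, and their summed level ran from 22.9 to 192 CPM in HF-named and 63.7 to 127 CPM in con-named libraries. Nearly all of it was Nppa, a natriuretic peptide that stressed ventricle also expresses, at 76.3 ± 65.7 CPM in HF-named and 87.7 ± 23.3 CPM in con-named libraries. CPM values are counts divided by the library size after TMM, a scaling that assumes most genes do not differ.

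Most SR and hnRNP transcripts sat at nearly the same level in both groups. Hnrnpab and Hnrnpul2 rose and Hnrnpl fell in HF-named libraries, and the other 27 genes did not pass the test. These 3 of 30 are 10% of the members, against 13.3% of all genes tested, of which 8.28% rose and 5.05% fell (edgeR quasi-likelihood test, Benjamini-Hochberg adjusted p under 0.05). With library totals in place of TMM the members gave 0 higher and 9 lower, and all genes gave 483 higher and 2582 lower, where TMM gave 1252 and 764. That scaling moved the median of all genes to -0.13 on the log2 scale, against -0.01 with TMM, and the members' median to -0.14, against -0.03. Relative to all genes the members' median was -0.01 with totals and -0.02 with TMM. Leaving the mitochondrial transcripts out before TMM gave 2 higher and 1 lower again. An offset for transcript length and GC content gave 2 higher and 4 lower members. With that offset 919 genes rose and 616 fell over all, or 10.2% of those tested. The authors' deposited table also has 3 members under an adjusted p of 0.05, the same genes in the same directions, against 5.11% of its 33183 genes with an adjusted p and 11.1% of those tested here.

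The members' differences were small. Their log2 fold changes ran from -0.20 to 0.19, which is a change of -12.8% to 14.1%, with standard errors of 0.04 to 0.08. The median size of the change was 0.06 over the members and 0.13 over all genes tested, and 32.2% of genes tested had a larger change than any member. Of the members, 10 had a positive value and 20 a negative one with TMM, beside 47.3% positive values over all genes tested, whereas library totals gave 2 positive members, Hnrnpab and Hnrnpul2, and 28 negative ones. The 95% intervals of the 27 members that did not pass lay between -0.31 and 0.21, so each of them excluded a change of 0.32 or more on the log2 scale in either direction. The members are counted deeply and vary little: their coefficient of variation between libraries of a group was 1.42% to 11.7%, with a median of 4.53% in HF-named and 4.49% in con-named libraries. Among the 8032 genes within the members' range of mean level, 11.1 to 516 CPM, 18.9% passed the test.

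**Figure D1:**
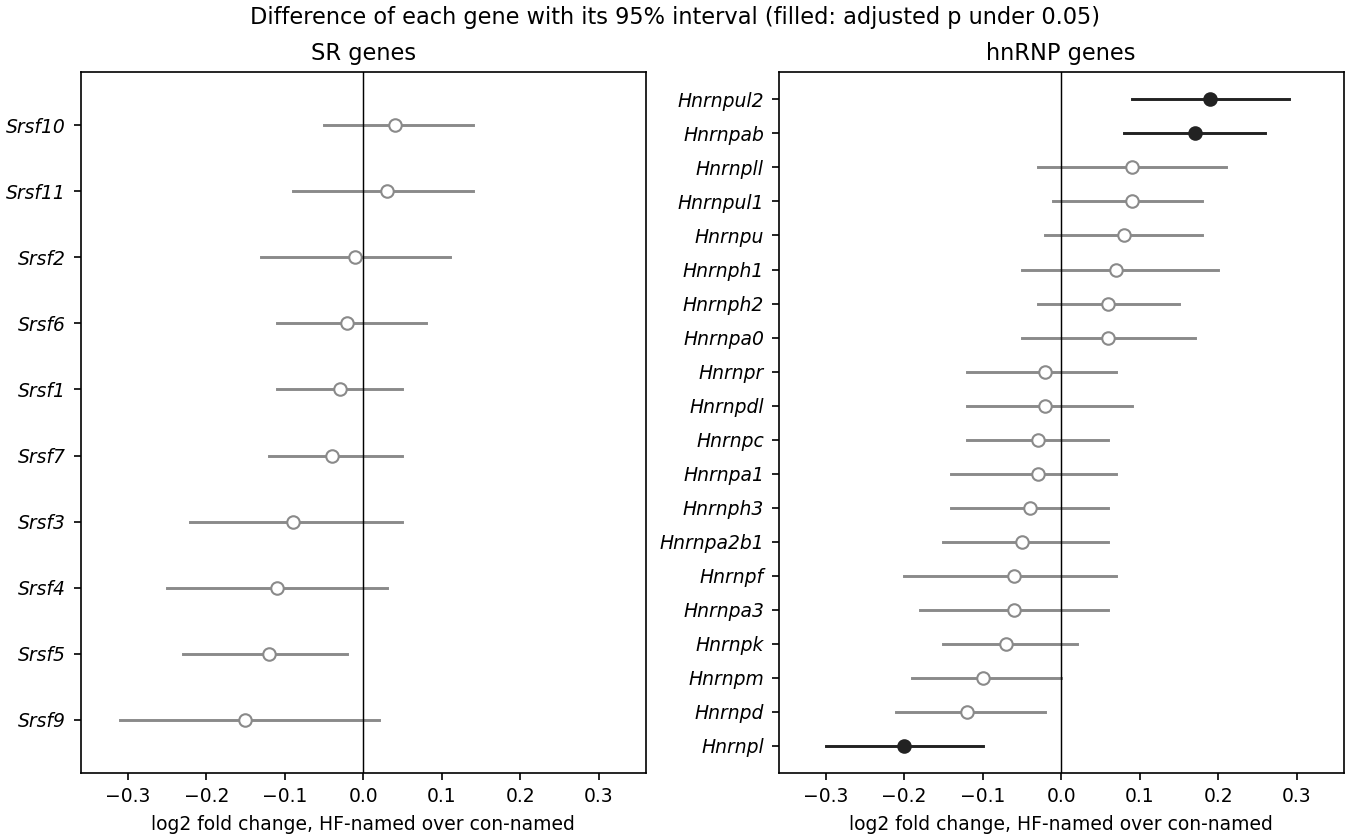
Log2 fold change of each gene, HF-named over con-named libraries (x axis), with its 95% interval from edgeR, for the 10 SR genes and the 20 hnRNP genes. Filled points mark Hnrnpul2, Hnrnpab and Hnrnpl, whose adjusted p was under 0.05, and the open points lie between -0.15 and 0.09.

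In bulk tissue, fewer cells of a type and less RNA per cell cannot be told apart, and markers of other cells differed between the groups. Of 10 markers each, 3 fibroblast, 3 endothelial and 3 macrophage genes fell in HF-named libraries and 0 rose. Over all genes tested 5.05% fell and 8.28% rose. With the length and GC offset 2 fibroblast, 3 endothelial and 2 macrophage genes fell and 0 rose. The summed fibroblast level ran from 1186 to 1446 CPM in HF-named libraries and 1445 to 1849 CPM in con-named libraries. The summed endothelial level ran from 1053 to 1593 CPM in HF-named and 1337 to 1745 CPM in con-named libraries, and the summed macrophage level from 213 to 282 CPM in HF-named and 253 to 345 CPM in con-named libraries. The 10 cardiomyocyte markers, of which 2 rose and 4 fell, summed to 65934 to 73159 CPM in HF-named and 63016 to 71545 CPM in con-named libraries. With the length and GC offset 0 of these 10 rose and 1 fell. The summed mural level ran from 1474 to 1674 CPM in HF-named and 1286 to 1462 CPM in con-named libraries, with no overlap. Of the mural, lymphocyte and Schwann cell markers tested, 0 of 8, 0 of 5 and 0 of 4 passed. Of 5 erythroid markers 1 rose, and no adipocyte marker passed the filter on low counts. None of these markers was at 0 in all libraries, and their part in the members' values was not tested.

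Among the SR genes, 0 of 10 passed the test, beside 13.3% of all genes tested. Of the 10, 1 gene, Srsf5, had an unadjusted p under 0.05 (edgeR). Over all genes tested, 4328 of 15114 had an unadjusted p under 0.05 (edgeR). DESeq2 and limma-voom also called 0 SR genes, whereas library totals called Srsf1 and Srsf5 lower and the length and GC offset called Srsf5 lower. The SR median log2 fold change was -0.03, with 2 positive and 8 negative values. Summed over the family, SR transcripts made up 929.9, 968 and 985 CPM (lowest, median and highest library) in HF-named libraries, against 934, 1003 and 1061 CPM in con-named libraries. The summed levels of the groups overlapped.

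Srsf5 was the most abundant SR transcript per length, with 71.4 ± 3.91 FPKM in HF-named and 84.3 ± 6.2 FPKM in con-named libraries (SD, n = 6 each). FPKM is the authors' count per kilobase and per raw library total, with no correction for the mitochondrial share, and 28 of 30 members had a lower mean FPKM in HF-named libraries. In CPM, Srsf5 had 279.6, 299 and 313 (lowest, median and highest) in HF-named libraries, against 288, 328 and 346 in con-named libraries. A single con-named library lay within the HF-named range, and the others lay above it. The log2 fold change of -0.12 (SE 0.05) did not pass (edgeR adjusted p = 0.111). An offset for transcript length and GC content took it past the threshold, at -0.17 with an adjusted p of 0.0299, as did library totals, at -0.24 with 0.00784.

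Srsf2 (SC35), a marker of nuclear speckles, came next per length, with 31.9 ± 3.11 FPKM in HF-named and 34.9 ± 2.36 FPKM in con-named libraries. Its level was 85.3, 98.4 and 107 CPM (lowest, median and highest) in HF-named libraries, against 93.5, 99.1 and 105 CPM in con-named libraries. The con-named range lay wholly within the HF-named range, and the log2 fold change was -0.01 (SE 0.06, edgeR adjusted p = 0.894), the largest adjusted p of any member. Srsf6, a close relative of Srsf4 and Srsf5, had 25.5 ± 1.54 FPKM in HF-named and 27.9 ± 2.22 FPKM in con-named libraries. Srsf6 had 120.4, 129 and 131 CPM in HF-named libraries, against 121, 128 and 139 CPM in con-named libraries. The groups overlapped almost throughout (log2 fold change -0.02, SE 0.04, edgeR adjusted p = 0.85).

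Srsf1, the founding SR protein and a regulator of splice site choice, was among the steadiest transcripts. It had 116, 119 and 124 CPM in HF-named libraries, against 119.8, 121 and 124 CPM in con-named libraries, a coefficient of variation of 2.3% and 1.42%. Its log2 fold change was -0.03, with an interval from -0.11 to 0.05. Library totals called Srsf1 lower (edgeR adjusted p = 0.0402). Srsf9, the closest relative of Srsf1, had the widest interval of the members, with 14.9 ± 0.905 CPM in HF-named and 16.4 ± 1.93 CPM in con-named libraries, and a log2 interval from -0.31 to 0.02. Srsf3 and Srsf7, a related pair that also couple splicing to mRNA export, had log2 fold changes of -0.09 and -0.04. Srsf10, which in its dephosphorylated form represses splicing after heat shock, and Srsf11 had the positive values among SR genes with TMM, 0.04 and 0.03, which library totals turned to -0.07 and -0.09. Srsf4 was the lowest SR transcript per length, at 2.89 ± 0.162 FPKM in HF-named and 3.37 ± 0.362 FPKM in con-named libraries. Its log2 fold change stood at -0.11 (SE 0.07, edgeR adjusted p = 0.302). The Srsf4 value is uncertain in its source, since 43.0% of its exon bases overlap Gm12992 on the opposite strand and the strand setting of the counting is not given.

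**Figure D2:**
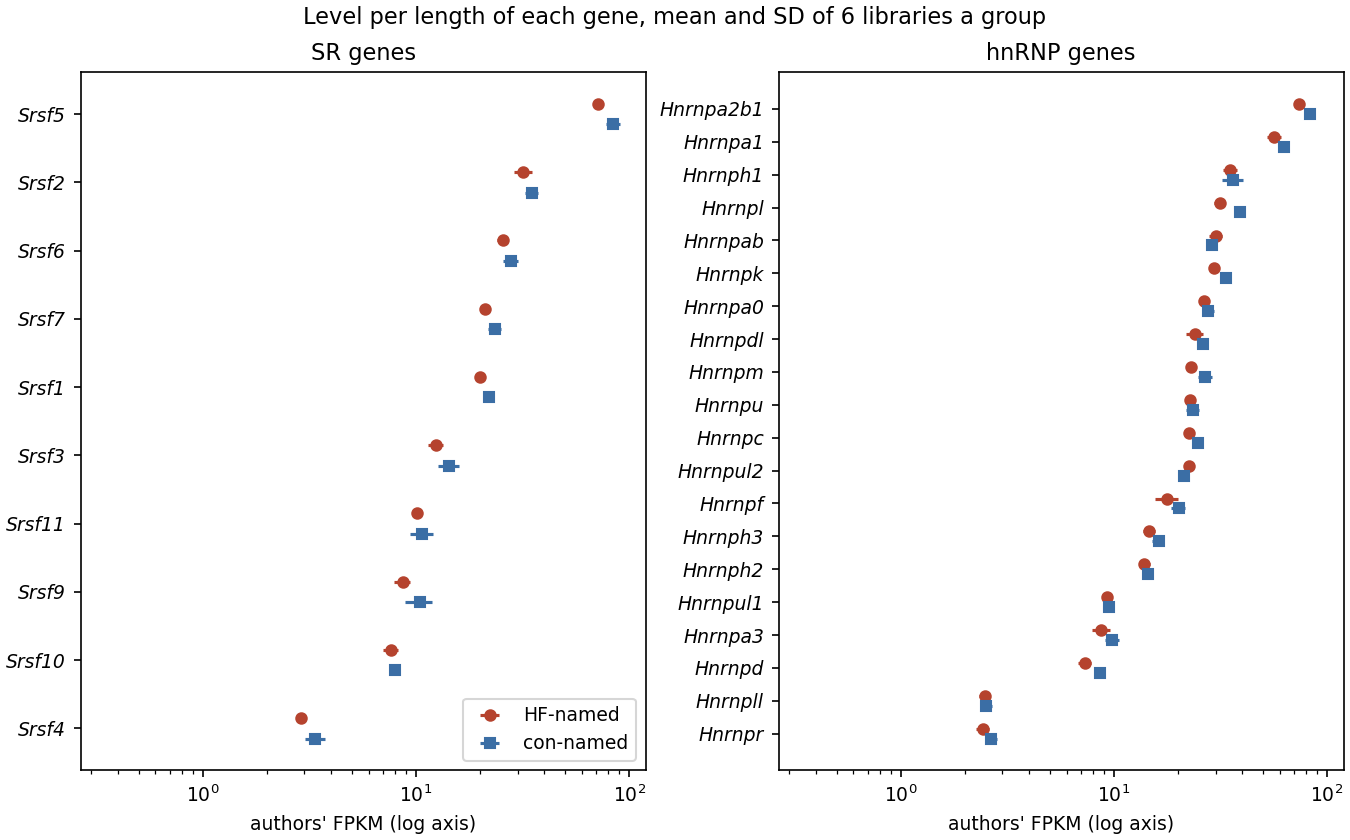
Mean level per length of each gene in the authors' FPKM (log axis, x) with SD over 6 libraries, in 2 panels for SR and hnRNP genes. In each row the HF-named point, a circle, is drawn above the con-named point, a square, whatever their values. Srsf5 and Hnrnpa2b1 are the most abundant of their families, at 71.4 and 74.1 FPKM in HF-named libraries, and Srsf4, Hnrnpll and Hnrnpr lie lowest in both groups.

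Among the hnRNP genes, 3 of 20 passed the test, 2 higher and 1 lower. An unadjusted p under 0.05 (edgeR) was found for 5 of 20, beside 4328 of 15114 genes tested. Hnrnpl, a binder of CA-rich RNA that represses or activates exons by its position, fell in HF-named libraries. It is ENSMUSG00000015165 at chr7:28808541-28822266 on the plus strand (mm10, GENCODE M21). Hnrnpl had 188, 192 and 211 CPM (lowest, median and highest) in HF-named libraries, against 209.6, 222 and 236 CPM in con-named libraries. Of the HF-named libraries, 5 of 6 lay below every con-named library and the other lay inside the con-named range. Members with all HF-named libraries below the con-named ones numbered 0 of 30, beside 1.95% of genes tested. The means were 195 ± 8.57 CPM in HF-named and 224 ± 10 CPM in con-named libraries (SD, n = 6 each), or -0.20 as a log2 fold change (SE 0.05, edgeR adjusted p = 0.0116). The authors' deposited table gives Hnrnpl -0.20 with an adjusted p of 0.00119. Leaving out each library in turn kept the adjusted p at 0.0081 to 0.0297, and library totals gave -0.31.

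Hnrnpab, which binds AU-rich and CArG-box sequences and is a close relative of Hnrnpd, rose in HF-named libraries. It is ENSMUSG00000020358 at chr11:51600100-51606847 on the minus strand. Hnrnpab had 82.9, 85.8 and 92.2 CPM in HF-named libraries, against 74.6, 76.6 and 80.7 CPM in con-named libraries. The lowest HF-named value exceeded the highest con-named value, a separation seen in 3.41% of genes tested in this direction and in 5.36% in either direction. The means were 86.7 ± 3.35 CPM in HF-named and 77.0 ± 2.24 CPM in con-named libraries, or 0.17 as a log2 fold change (SE 0.04, edgeR adjusted p = 0.013). Library totals gave 0.06 with an adjusted p of 0.416, and testing all features without a filter gave an adjusted p of 0.0541. The authors' deposited table gives Hnrnpab 0.17 with an adjusted p of 0.00252. Of its exon bases, 29.1% overlap Phykpl on the opposite strand, a gene at 13.1 ± 1.11 CPM in HF-named and 14.3 ± 0.6 CPM in con-named libraries (log2 fold change -0.13, edgeR adjusted p = 0.203).

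Hnrnpul2, a relative of the nuclear scaffold protein Hnrnpu, also rose. It is ENSMUSG00000071659 at chr19:8820010-8834143 on the plus strand. Hnrnpul2 had 127, 133 and 142 CPM in HF-named libraries, against 109, 117 and 125 CPM in con-named libraries. Again the groups did not overlap, with HF-named higher in 6 of 6 libraries. The means were 134 ± 5.97 CPM in HF-named and 117 ± 6.13 CPM in con-named libraries, or 0.19 as a log2 fold change (SE 0.05, edgeR adjusted p = 0.0154), which the authors' deposited table gives as 0.19 with an adjusted p of 0.0043. Library totals gave 0.07 with an adjusted p of 0.244, and no filter gave an adjusted p of 0.0502. Hnrnpul2 shares 5.06% of its exon bases with AC129217.1 on the same strand.

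**Figure D3:**
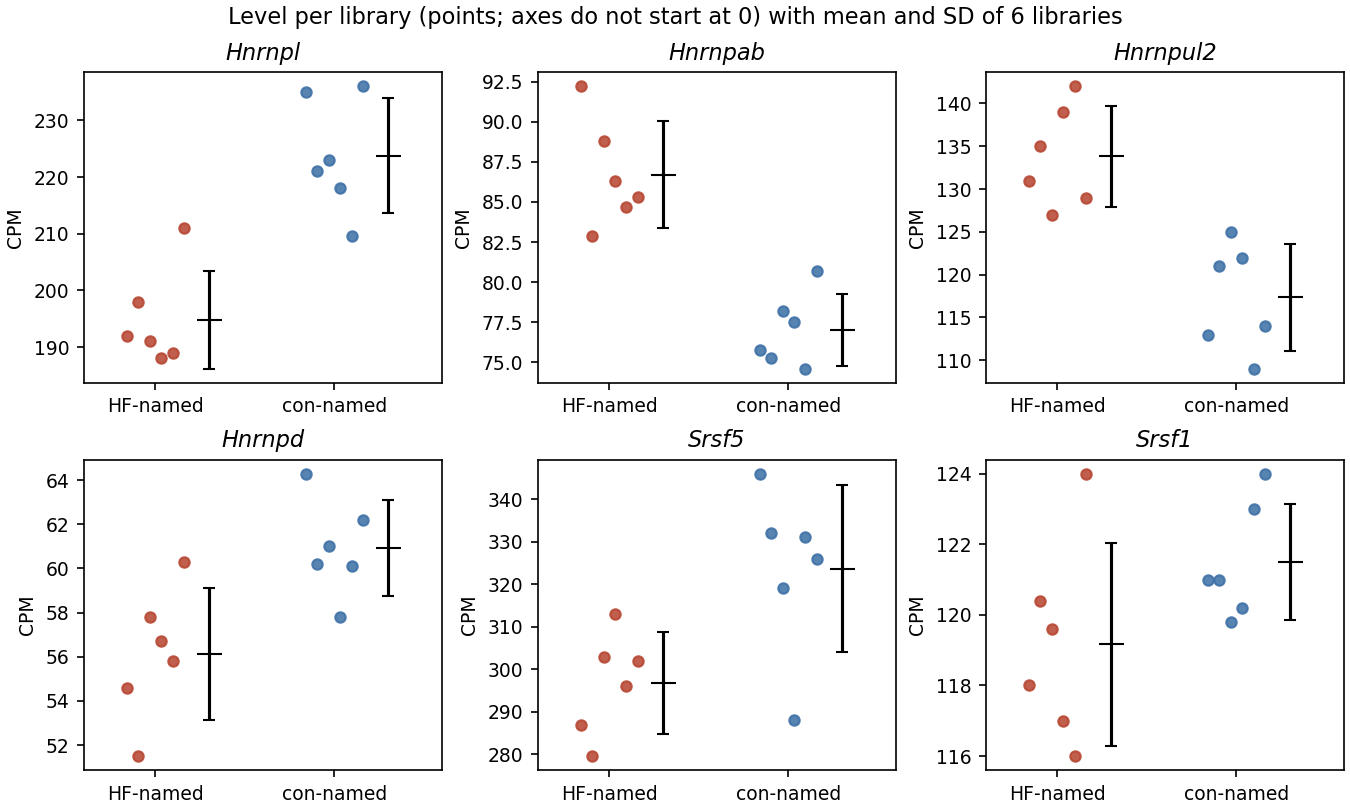
Level of 6 genes in every library in CPM (y axis, which does not start at 0), HF-named points left of con-named points, with mean and SD of 6 libraries. The groups of Hnrnpab and Hnrnpul2 do not overlap, 1 HF-named library of Hnrnpl reaches the con-named range, and Hnrnpd, Srsf5 and Srsf1, which did not pass the test, overlap.

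The promoters of Hnrnpl and Hnrnpab are shown because these genes passed the test in opposite directions and both have an entry in the RefSeq table of GRCm38.p6 promoters (250 bases before to 50 after the start). Capitals mark the GC box GGGCGG, the CCAAT box CCAAT and the TATA box TATAAA, each searched on both strands, so that CCGCCC and ATTGG are the same boxes on the other strand. Hnrnpl lies at chr7:28810640-28810939 on the plus strand, with 60.0% GC, 21 CpG, 2 GC boxes and 4 CCAAT boxes. Its RefSeq start lies 2349 bases from the start of the GENCODE gene. Hnrnpab lies at chr11:51606832-51607131 on the minus strand, with 58.3% GC, 28 CpG, 1 GC box, 3 CCAAT boxes and 1 TATA box.
Hnrnpl promoter: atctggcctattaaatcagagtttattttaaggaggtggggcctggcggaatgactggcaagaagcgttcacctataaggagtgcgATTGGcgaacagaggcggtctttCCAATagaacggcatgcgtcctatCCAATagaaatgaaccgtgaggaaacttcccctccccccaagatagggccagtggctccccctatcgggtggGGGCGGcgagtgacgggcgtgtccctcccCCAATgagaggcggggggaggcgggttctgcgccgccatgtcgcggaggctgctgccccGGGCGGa
Hnrnpab promoter: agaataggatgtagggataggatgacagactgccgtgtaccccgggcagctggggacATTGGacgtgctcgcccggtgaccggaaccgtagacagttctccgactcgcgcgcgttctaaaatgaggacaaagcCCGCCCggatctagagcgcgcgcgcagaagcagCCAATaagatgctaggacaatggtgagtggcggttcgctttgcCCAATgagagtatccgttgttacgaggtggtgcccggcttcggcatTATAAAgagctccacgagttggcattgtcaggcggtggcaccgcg
Both sequences hold CCAAT boxes in both orientations. Of the 30 members, 28 matched a promoter, with Hnrnpll and Hnrnpul2 the exceptions. Their median GC content was 66.7% and their median CpG number 31.5, against 52.7% and 7 over all 32851 promoters in the table. Each member gives 1 promoter, while every entry of the table is counted, whether or not its gene was tested here. Shares among genes of a level like the members were not taken. GGGCGG stood in 78.6% of member promoters and 35.7% of all, CCAAT in 57.1% and 37.4%, and TATAAA in 14.3% and 13.6%. The ETS motif CCGGAAG stood in 21.4% of member promoters and 8.86% of all, the E box CACGTG in 14.3% and 7.15%, and the CRE TGACGTCA in 0 of 28 and 1.79% of all. A match is a description of these letters, not a binding site.

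Hnrnpa2b1 was the most abundant hnRNP transcript per length, with 74.1 ± 4.2 FPKM in HF-named and 82.7 ± 4.76 FPKM in con-named libraries. It is a reader of modified RNA and a binder of exon silencers. Hnrnpa2b1 had 481, 510.1 and 524 CPM (lowest, median and highest) in HF-named libraries, against 484, 527 and 564 CPM in con-named libraries. The groups overlapped over most of their range (log2 fold change -0.05, SE 0.05, edgeR adjusted p = 0.586). Hnrnpa1, the best known repressor of exon inclusion, had 56.5 ± 3.99 FPKM in HF-named and 62.6 ± 2.59 FPKM in con-named libraries. Hnrnpa1 had 168, 188 and 204 CPM in HF-named libraries, against 183, 188 and 203 CPM in con-named libraries, and the con-named range lay within the HF-named range. Its log2 fold change was -0.03 (SE 0.05, edgeR adjusted p = 0.709). Hnrnpa1 has near-identical processed copies in the genome, and how reads were divided among copies is not given in the sources used here.

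Hnrnph1, which binds runs of G, had 35.2 ± 2.67 FPKM in HF-named and 36.3 ± 4.23 FPKM in con-named libraries. Hnrnph1 had 200.1, 217 and 225 CPM in HF-named libraries, against 182, 200.4 and 236 CPM in con-named libraries. Here the HF-named range lay within the con-named range (log2 fold change 0.07, SE 0.06, edgeR adjusted p = 0.445). Per length, Hnrnpl stood at 31.4 ± 1.94 FPKM in HF-named libraries, below Hnrnph1, and at 39.0 ± 1.13 FPKM in con-named libraries, above it. The relatives of Hnrnph1, which are Hnrnph2, Hnrnph3 and Hnrnpf, had log2 fold changes of 0.06, -0.04 and -0.06. Hnrnpf had the widest spread of any hnRNP in HF-named libraries, at a coefficient of variation of 10.5%.

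Hnrnpd (AUF1), which binds AU-rich elements and speeds the decay of mRNAs that carry them, came closest to the threshold without passing it. Its level was 51.5, 56.2 and 60.3 CPM in HF-named libraries, against 57.8, 60.6 and 64.3 CPM in con-named libraries. Of the HF-named libraries, 5 of 6 lay below every con-named library, 1 of them by less than the rounding shows. The log2 fold change was -0.12 (SE 0.05, edgeR adjusted p = 0.099), and the length and GC offset took it to -0.22 with an adjusted p of 0.0124. Hnrnpm, a binder of GU-rich RNA, had 113 ± 4.88 CPM in HF-named and 121 ± 5.34 CPM in con-named libraries (log2 fold change -0.10, SE 0.05, edgeR adjusted p = 0.163). Hnrnpm shares 14.7% of its exon bases with March2 on the same strand, and March2 rose by 0.24 (edgeR adjusted p = 0.00708).

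The other hnRNP genes had intervals that included no change. Hnrnpa0, Hnrnpa3 and Hnrnpdl, the remaining members of the A and D groups, had log2 fold changes of 0.06, -0.06 and -0.02. Hnrnpc, a binder of uridine tracts, and Hnrnpk, a binder of C-rich RNA, had -0.03 and -0.07. Hnrnpr had -0.02 and was the lowest member per length in HF-named libraries, at 2.42 ± 0.168 FPKM. In con-named libraries Hnrnpr stood at 2.66 ± 0.158 FPKM, above Hnrnpll at 2.52 ± 0.162 FPKM. Ranks per length depend on the annotated length, and the annotated exons of Hnrnpr hold 22199 bases. In CPM it averaged 55.9 in HF-named libraries, above Srsf4 at 10.7. With the length and GC offset Hnrnpr stood at -0.20 with an adjusted p of 0.03. Hnrnpll, known in mouse T cells for the splicing of Ptprc, had 0.09, as had Hnrnpul1, and Hnrnpu had 0.08, and library totals turned these 3 to -0.02, -0.03 and -0.04. Summed over the family, hnRNP transcripts made up 2611, 2654 and 2674 CPM in HF-named libraries, against 2597, 2679.7 and 2718 CPM in con-named libraries, with overlap throughout.

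Ratios of related genes within a library need no scaling, and they were added after the data were seen. Of 13 pairs, 4 differed between the groups after Benjamini-Hochberg adjustment over the 13 pairs. The ratios rest on the same counts as the fold changes and are not independent of them. Hnrnpab over Hnrnpd had a log2 ratio of 0.63 ± 0.09 in HF-named and 0.34 ± 0.06 in con-named libraries (SD, n = 6 each), a difference of 0.29 (SE 0.04, two-sided exact permutation test, p = 0.00216, the smallest it can give, adjusted p = 0.0188). The lowest HF-named ratio was 0.50 and the highest con-named ratio 0.42, so the groups did not overlap. Hnrnpl over Hnrnpll had 2.69 ± 0.13 in HF-named and 2.98 ± 0.11 in con-named libraries, a difference of -0.29 (SE 0.07, two-sided exact permutation test, p = 0.00433, adjusted p = 0.0188).

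Hnrnpul2 over Hnrnpu had a log2 ratio of -1.04 ± 0.03 in HF-named and -1.15 ± 0.09 in con-named libraries, a difference of 0.11 (SE 0.04, two-sided exact permutation test, p = 0.00433, adjusted p = 0.0188). Hnrnpd over Hnrnpdl had -1.10 ± 0.05 in HF-named and -1.0 ± 0.06 in con-named libraries, a difference of -0.10 (SE 0.03, two-sided exact permutation test, p = 0.00866, adjusted p = 0.0281). The pairs that differed lie in the D, L and U groups, and the differences reached 0.29 on the log2 scale. Pairs of SR genes did not pass: Srsf4 over Srsf6 differed by -0.09 (adjusted p = 0.0938, exact permutation test) and Srsf5 over Srsf6 by -0.11 (adjusted p = 0.0964, exact permutation test). Srsf7 over Srsf3 differed by 0.05 and Srsf9 over Srsf1 by -0.11. In the A group, Hnrnpa2b1 over Hnrnpa1 differed by -0.01 and Hnrnpa3 over Hnrnpa1 by -0.02. In the F and H group, Hnrnph1 over Hnrnpf differed by 0.14 and Hnrnph2 over Hnrnph1 by -0.01, and Hnrnpul2 over Hnrnpul1 differed by 0.10 (adjusted p = 0.0619, exact permutation test).

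**Figure D4:**
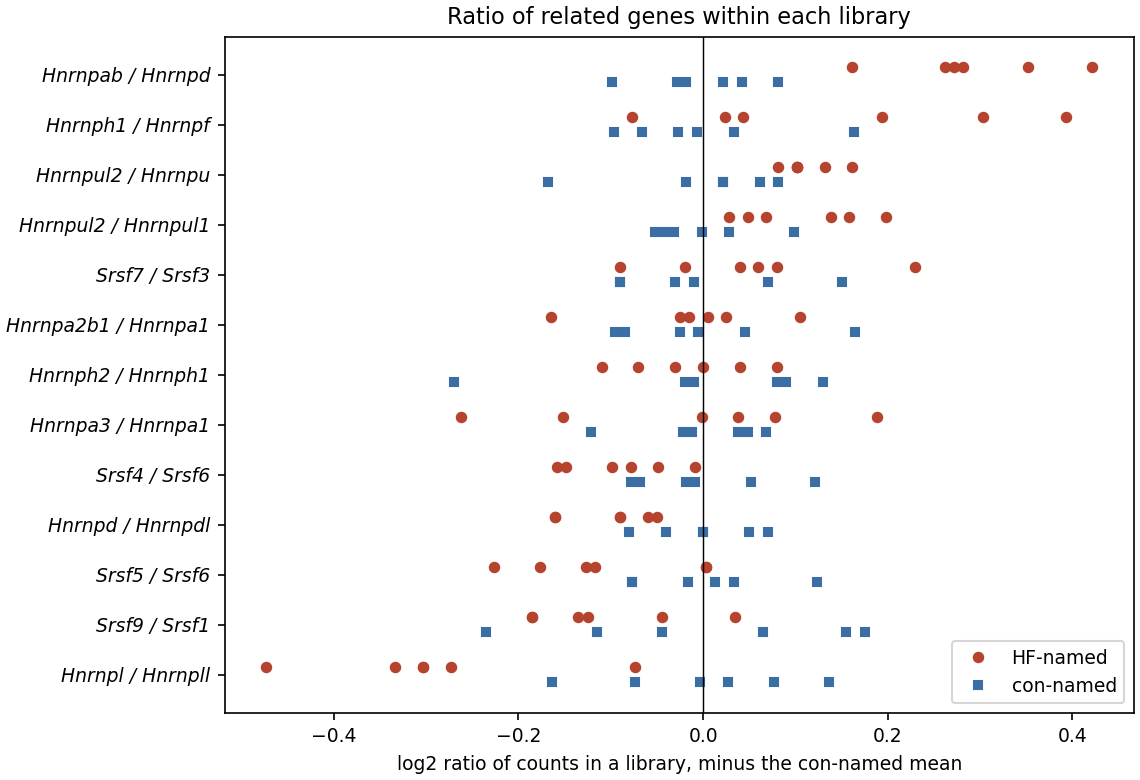
Log2 ratio of counts of related genes in every library, minus the mean of the con-named libraries (x axis), with HF-named libraries as circles drawn above con-named libraries as squares. Hnrnpab over Hnrnpd separates the groups and Hnrnpl over Hnrnpll lies lowest, by -0.29 in the mean.

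Annotated decay and retained-intron transcripts were common among the members. In GENCODE M21, 19 of 30 members (63.3%) have an annotated transcript subject to nonsense-mediated decay, against 28.3% of the 12900 protein-coding genes tested. A retained-intron transcript is annotated for 22 of 30 (73.3%), against 58.6%. Of the genes that passed, Hnrnpl has 1 decay transcript and 7 retained-intron transcripts, Hnrnpab has 0 of each, and Hnrnpul2 has 0 and 1. The counts are summed over all transcripts of a gene, so the use of these transcripts was not measured. The members' median transcript GC content was 43.2%, against 49.8%.

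The genes that act on or beside SR proteins and hnRNPs were taken from 9 lists, which hold 186 tested genes. Of these, 22 rose and 4 fell (14%, beside 13.3% of all genes tested), with a median log2 fold change of 0.02. These counts depend on the library set and the scaling. The higher count was 12, 11 and 10 without HF-named replicates 2, 4 and 5. It was 14 without con-named replicate 1, 4 or 5, and 11 without con-named replicate 6. The lower count was 2 without HF-named replicate 4 and 8 without con-named replicate 2. With library totals 4 rose and 42 fell, and with the length and GC offset 6 rose and 7 fell. Of the 26 genes called, 11 passed with every library left out in turn and 8 passed with the offset.

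Genes on the list of kinases, phosphatases and import factors changed in both directions, and not all of them act on SR proteins alone. Of these 19 genes, 7 rose and 1 fell (42.1%, beside 13.3% of all genes tested), with a median of 0.11. With the offset 3 rose and 1 fell. Srpk1, Clk1, Clk2, Clk3 and Tnpo3, named after their values were seen, did not pass (edgeR adjusted p from 0.0837 to 0.811). Srpk2, a kinase that phosphorylates the arginine-serine tail, rose, with no overlap between groups: it had 60.8, 64.5 and 74.2 CPM in HF-named libraries, against 45.6, 51.7 and 58.5 CPM in con-named libraries (log2 fold change 0.34, SE 0.06, edgeR adjusted p = 0.00388). Srpk2 passed under every alternative run. Tnpo1, the import receptor of Hnrnpa1, rose by 0.25 (edgeR adjusted p = 0.00396; 0.0817 with the offset), and the dual-specificity kinase Dyrk2 rose by 0.28 (edgeR adjusted p = 0.00423; 0.0201 with the offset). Srpk3, the muscle-specific member of the Srpk family, fell: it had 36.5 ± 2.12 CPM in HF-named and 42.9 ± 2.04 CPM in con-named libraries (log2 fold change -0.23, edgeR adjusted p = 0.0084). Ppp1cb, a catalytic subunit of protein phosphatase 1, rose by 0.23 (edgeR adjusted p = 0.0187), and was lost with the offset (0.14, adjusted p = 0.0884) and with library totals (0.12, adjusted p = 0.0782). The kinases Dyrk1b, Clk4 and Dyrk1a rose by 0.34, 0.19 and 0.22, and with the offset Dyrk1b passed while Clk4 and Dyrk1a did not. Srpk3 and these 4 fall outside the rule for named genes and were named after their values were seen. Dyrk1b was lost without HF-named replicate 1, 2 or 4 or con-named replicate 5 or 6. With 1 library left out, Clk4 passed without HF-named replicate 3 or con-named replicate 5 and was lost in the other sets, and Dyrk1a passed without HF-named replicate 1 or 3 or con-named replicate 2 or 3 and was lost in the others.

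The called genes of core splice site recognition fell. Of 27 genes of the U1 and U2 particles and 3' splice site recognition, 0 rose and 3 fell, with a median of -0.11 and 24 negative values. The calls are 11.1% of the list, beside 13.3% of all genes called either way and 5.05% called lower. With the offset 0 rose and 2 fell, with a median of -0.07. U2af1, the small subunit that reads the AG of the 3' splice site, fell by 0.23 on the log2 scale (21.9 ± 1.56 CPM in HF-named and 25.7 ± 1.68 CPM in con-named libraries, edgeR adjusted p = 0.0209), and stood at -0.09 with an adjusted p of 0.365 with the offset. Snrpa1 fell by 0.28 (edgeR adjusted p = 0.0288) and was lost without HF-named replicate 2 or 4 or con-named replicate 1 or 4. Snrnp70, the U1 protein that SR proteins contact, fell by 0.17 (169 ± 7.4 CPM in HF-named and 189.8 ± 11.3 CPM in con-named libraries, edgeR adjusted p = 0.032). It was lost without HF-named replicate 1, 4 or 6 or con-named replicate 3, and with the offset (adjusted p = 0.0722). In the tri-snRNP and activated spliceosome, 1 of 31 genes passed: the helicase Dhx15 rose by 0.17 (edgeR adjusted p = 0.0168; 0.0381 with the offset). Dhx15 passed with each library left out in turn. It was lost with library totals, with no filter and with a block for replicate number. It was also lost without the 2 libraries of highest and lowest mitochondrial share.

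Other partners gave few calls. Among 27 SR-like proteins and cofactors, Bclaf1, Nktr and Srrm4, known as a neuronal activator of microexons, rose by 0.17, 0.25 and 0.34, with edgeR adjusted p-values of 0.0389, 0.0434 and 0.0474. None of these 3 passed with the offset. With 1 library left out, Bclaf1 passed without HF-named replicate 1 or 3 or con-named replicate 3, and Nktr without HF-named replicate 4 or 6 or con-named replicate 5. Srrm4 passed without HF-named replicate 1 or 3 or con-named replicate 2 or 6, and was lost in the other sets. Among 30 hnRNP-class proteins under other symbols, Syncrip, the relative of Hnrnpr, rose by 0.17 (edgeR adjusted p = 0.0333; 0.654 with the offset) and with 1 library left out passed without HF-named replicate 3 or 6 or con-named replicate 1 or 3. Of 16 mRNA export genes 0 passed and 3 had an unadjusted p under 0.05 (edgeR), beside 4328 of 15114 genes tested. The nearest was Ddx39b at -0.14 (edgeR adjusted p = 0.0704; DESeq2 adjusted p = 0.0408), which also passed without HF-named replicate 3. With the offset 2 export genes passed, both lower.

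Nonsense-mediated decay, which limits many SR transcripts, had 5 of 17 genes higher and 0 lower, with 1 higher with the offset. The calls are 29.4% of that list, beside 13.3% of all genes called either way and 8.28% called higher. Smg5 had 74.7 ± 1.8 CPM in HF-named and 66.0 ± 3.29 CPM in con-named libraries, with no overlap (log2 fold change 0.18, edgeR adjusted p = 0.0134; 0.00595 with the offset). Smg1, the kinase of Upf1, and Upf2 rose by 0.17 and 0.21. Smg1 was lost without HF-named replicate 1, 2, 4 or 5 or con-named replicate 4 or 6, and Upf2 without HF-named replicate 4, 5 or 6 or con-named replicate 1, 5 or 6. Smg6 and Nbas, named after their values were seen, rose by 0.20 and 0.26. Smg6 was lost without HF-named replicate 1, 4, 5 or 6 or con-named replicate 1, 5 or 6, while Nbas, with 1 library left out, passed without HF-named replicate 3 or con-named replicate 1 and was lost in the other sets. Of 15 genes of the m6A methylation machinery and its readers, 4 rose and 0 fell (26.7%, beside the same shares of all genes), with 1 higher with the offset. Rbm15, an adaptor of the methyltransferase, rose by 0.46 (22.9 ± 3.72 CPM in HF-named and 16.7 ± 2.26 CPM in con-named libraries, edgeR adjusted p = 0.0115). Ythdf3, the demethylase Alkbh5 and Ythdf2 rose by 0.19, 0.26 and 0.19, and none of them passed with the offset. Alkbh5 was lost without HF-named replicate 4 or 5 or con-named replicate 6, and Ythdf2 without HF-named replicate 2 or 5 or con-named replicate 1 or 3. Ythdf2 falls outside the rule for named genes and was named after its values were seen. Of 4 nuclear-retained long RNAs tested, 1 rose and 0 fell, with a median of 0.03, and with the offset 0 rose and 1 fell, with a median of -0.16. Malat1, a long RNA of nuclear speckles where SR proteins gather, had 3388 ± 143 CPM in HF-named and 2766 ± 292 CPM in con-named libraries (log2 fold change 0.29, edgeR adjusted p = 0.012; 0.0865 with the offset). Neat1, the RNA scaffold of paraspeckles, named after its values were seen, stood at -0.13 (edgeR adjusted p = 0.332), and at -0.30 with an adjusted p of 0.0275 with the offset.

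**Figure D5:**
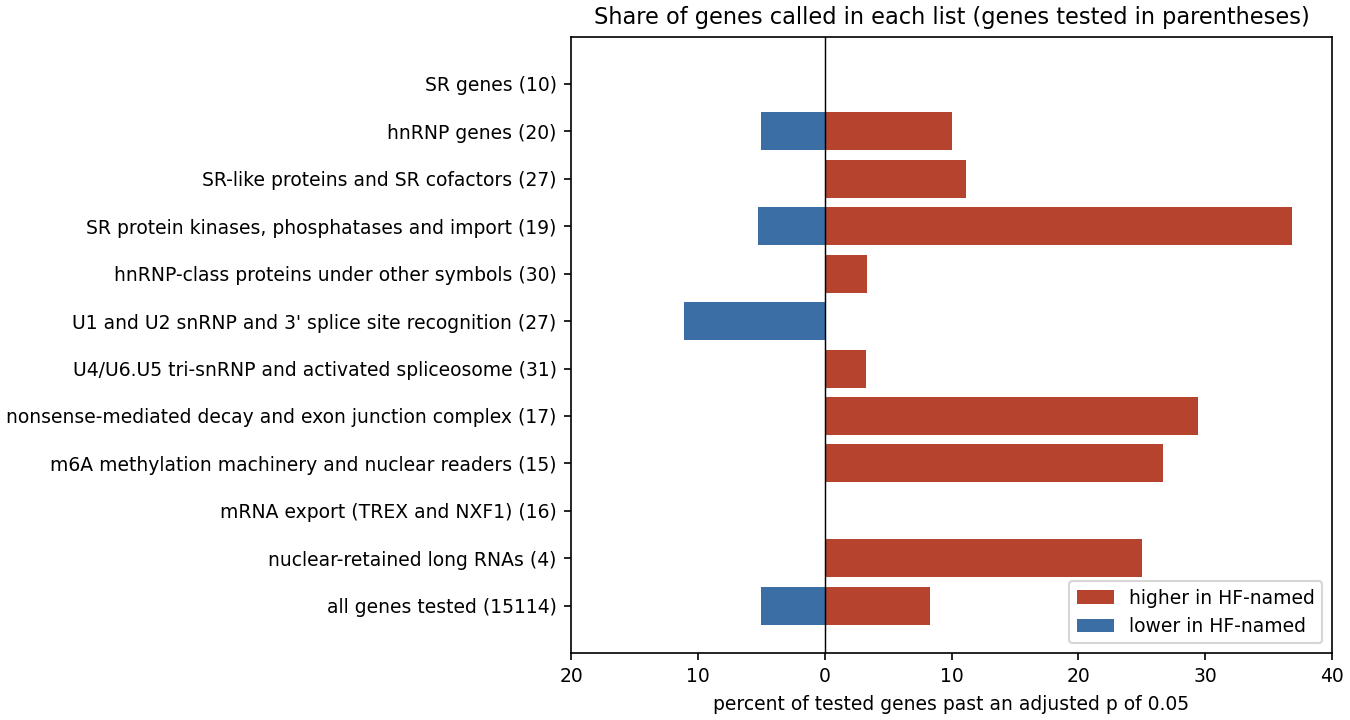
Percent of tested genes in each list whose adjusted p was under 0.05 (x axis), to the right where higher and to the left where lower in HF-named libraries, with all genes tested in the bottom row. SR genes have 0 calls and hnRNP genes 3, and the kinase, phosphatase and import list has 42.1% in both directions together.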

How the data were processed

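The labels and the deposited tables gave 12 bulk RNA-seq libraries, 6 a group, grouped by library name. The deposited counts are raw read counts per gene and library, per the file headers. The submitters' processing notes name cutadapt 1.15, HISAT2 2.0.5, HTSeq 0.9.1 and mm10 without tying them to steps, and these sources give neither the annotation release nor the strand setting. The deposited FPKM columns were made by the authors per kilobase and per library total, as checked on the values. The authors' table of their own comparison holds a signal of scaled counts per group, log2 fold changes and p-values, per the file headers.

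Genes kept by edgeR's filterByExpr (15114 of 54949) were scaled by TMM. The test was the quasi-likelihood one of edgeR, group alone, two-sided, with Benjamini-Hochberg adjustment over all of them at 0.05 (R 4.3.3, edgeR 4.0.16, limma 3.58.1, DESeq2 1.42.0). The steps were tested on simulated data, in which every change that was put in was larger than that of any member. The simulation therefore does not cover changes of the members' size. CPM values are mean ± SD, and SEs follow from the log2 fold change and the F statistic. A count of 3 is 0.136 to 0.208 CPM, and such limits cover counting error only. Library totals were 14443186 to 22048689. Within a group, replicates differed beyond counting noise (chi-square per degree of freedom 4.35 to 18.1 over 30 pairs). Unnamed features, 503 in number, took 0.568% of counts. The offset uses the length and GC content of the longest annotated transcript of a gene. Each of them enters as a spline of 5 degrees of freedom per library. Named genes were every member, the 3 called genes of smallest p in each list (or the 1 of smallest p), and others as stated. Members and lists were chosen with earlier results of these data known. Single values per library were tested by exact permutation over all 924 assignments. Same-numbered libraries did not deviate together, so replicate numbers were not used as pairs.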

Additional observations from a re-analysis of the deposited data

Results flagged for a closer look

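Among 144 groups of 6 libraries examined for a library far from the rest (members, other named genes and gene ratios), 3 had one, and chance flags about 1 in 20 groups. None was a member's own level. In HF-named replicate 3, Nbas, of the nonsense-mediated decay list, stood at 26.6 CPM, below the other HF-named libraries at 34.4 to 37.3 CPM. In con-named replicate 3, Rbm15 stood at 21.1 CPM, above the other con-named libraries at 14.9 to 16.9 CPM. In con-named replicate 5, the log2 ratio of Hnrnph2 to Hnrnph1 stood at -2.01, below the other con-named libraries at -1.76 to -1.61.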

How the results depend on the processing

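Of the members, 2 higher and 1 lower were called with RLE size factors, a filter of 1 CPM in 6 libraries, limma-voom, DESeq2, no mitochondrial transcripts and each library left out. Library totals gave 0 higher and 9 lower members, 483 higher and 2582 lower over all genes, and 4 higher and 42 lower in the lists. No filter gave 0 higher members and 10 higher in the lists, with more features tested, and DESeq2 gave 8 lower in the lists. The length and GC offset gave 2 higher and 4 lower members, and 6 higher and 7 lower in the lists. Over all genes it gave 919 higher and 616 lower, or 10.2% of those tested. Replicate numbers did not pair the libraries: same-number correlations were -0.198 to 0.116 and 1 of 6 matched its own number best. The replicate block gave 0 higher members, 748 higher and 383 lower over all genes, and 6 higher in the lists. Under it Hnrnpl had an adjusted p of 0.0392, Hnrnpab 0.0538 and Hnrnpul2 0.0579. The replicate block with the offset gave 0 higher and 2 lower members (Hnrnpd and Hnrnpr, with Hnrnpl, Hnrnpab and Hnrnpul2 at adjusted p-values of 0.0753, 0.054 and 0.141), 506 higher and 315 lower over all genes, and 2 higher and 1 lower in the lists. Without the 2 libraries at the ends of the mitochondrial share, added after the data were seen, 770 genes were higher over all and 7 in the lists. With each library left out, all genes ranged from 836 to 1581 higher and 500 to 969 lower, and the lists from 10 to 25 higher and 2 to 8 lower. Over all named genes, gene ratios and alternatives, a call was lost 221 times and gained 19 times, and 0 called values turned direction. Genes that had not passed changed sign, or reached 0, 19 times in 14 genes, 8 of these with library totals. The cause of these shifts was not tested.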
